A study of Mus musculus with 6 samples.

Results

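Chemokine receptors were followed in myeloid cells that had been cultured from the bone marrow of mice with and without lysozyme-Cre. The 9 genes described here, Ccr1, Ccr2, Ccr3, Ccr7, Ccrl2, Cx3cr1, Cxcr2, Cxcr4 and Ackr3, were taken by name from the 17382 genes of the deposited table, and all 9 were found. The series holds 6 libraries of C57BL/6 mice aged 2 months. The 3 libraries labelled knockout came from mice with the genotype PD-L1 flox/flox +lysozyme-Cre. In the text these are called knockout, after their label. The 3 labelled wild type came from mice that also carry PD-L1 flox/flox but no Cre, and the series title calls them littermates. All cultures were strained at 40 µm and kept for 3 days with 40 ng/mL of M-CSF, which keeps macrophages and their progenitors growing, in medium with 10% serum. Cre driven by the lysozyme gene acts in macrophages, monocytes and neutrophils and not in every cell of a marrow culture. Since no wild-type library carries Cre, an effect of Cre itself and of PD-L1 loss cannot be told apart.

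Chemokine receptors are G protein-coupled receptors of the cell membrane that steer leukocytes along gradients of small secreted proteins, the chemokines. Ligand binding activates inhibitory G proteins, which start cell movement, and receptor kinases and arrestins then switch the receptor off. In the monocyte lineage Ccr2 is known for the exit of inflammatory monocytes from marrow, Cx3cr1 for patrolling monocytes and tissue macrophages, Cxcr4 for retention in marrow, and Ccr1 for recruitment to inflamed tissue. Cxcr2 is best known on neutrophils, Ccr3 on eosinophils and basophils, and Ccr7 on dendritic cells and lymphocytes bound for lymph nodes. Ccrl2 and Ackr3 are atypical receptors, which bind a ligand without the usual G protein signal.

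The upstream sequences of Ccr1 and Ccr3 are shown because these neighbouring genes were the members whose libraries separated by genotype, in opposite directions, and that of Cxcr4 because its level varied most between libraries among the tested members. Each is the 250 bases before the annotated start nearest the deposited one, read 5′ to 3′ on the gene's own strand, from RefSeq on GRCm38.p6. The RefSeq gene of Ccr3 begins further upstream, at 124017825, so the window shown belongs to a later start, at 124021971. Ccr1 lies on the minus strand with its sequence at chr9:123968693-123968942, Ccr3 on the plus strand at chr9:124021721-124021970, and Cxcr4 on the minus strand at chr1:128592300-128592549. Capitals mark GAGGAA, the core letters bound by the myeloid transcription factor PU.1, searched on both strands.
Ccr1: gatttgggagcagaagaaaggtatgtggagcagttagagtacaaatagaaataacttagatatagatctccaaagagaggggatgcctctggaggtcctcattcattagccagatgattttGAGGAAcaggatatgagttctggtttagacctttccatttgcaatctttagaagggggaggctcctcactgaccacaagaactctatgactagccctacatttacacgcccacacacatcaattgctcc
Ccr3: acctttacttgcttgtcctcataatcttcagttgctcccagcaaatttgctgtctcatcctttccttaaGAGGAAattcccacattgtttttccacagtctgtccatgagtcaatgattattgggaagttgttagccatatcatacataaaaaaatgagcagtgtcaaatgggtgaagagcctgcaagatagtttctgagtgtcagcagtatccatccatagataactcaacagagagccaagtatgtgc
Cxcr4: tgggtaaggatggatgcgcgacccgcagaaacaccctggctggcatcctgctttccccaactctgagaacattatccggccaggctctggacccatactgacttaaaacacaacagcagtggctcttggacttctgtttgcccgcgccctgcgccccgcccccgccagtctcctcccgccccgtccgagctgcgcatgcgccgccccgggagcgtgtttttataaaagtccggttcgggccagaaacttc
GAGGAA stands 129 bases before the start of Ccr1 and 181 bases before this later start of Ccr3, and is not in this window of Cxcr4. Of the 8 members found in the RefSeq promoter table, 3 hold it within 250 bases, the other being Cxcr2, against 23.3% of 32817 promoters of the same length. As for Ccr3, the windows of Ccr2 and Ccrl2 belong to a later start. The RefSeq gene of Ccr2 begins at 124101918 and that of Ccrl2, on the minus strand, at 111057518. No window of these members holds GAAA followed by NN and GAAA, an interferon-stimulated response element, which 2.97% of all promoters hold. None holds TTCNNNGAA, a gamma-activated site, which 7.01% hold, so no match overlaps another. The window of Cxcr4 is 61.2% G and C, against 43.6% for Ccr1 and 40.4% for Ccr3. A match describes letters in a window and not a bound site.

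The depth and the libraries set limits on what follows. The libraries held 52.4 to 77.3 in units of 1000000 reads, recovered from the deposited values, and 11525 to 11680 genes reached 1 TPM (a read count per gene length, set to the same sum in every library). Macrophage genes were abundant in every library, such as Cd68, a lysosomal protein, with 1900 to 2500 TPM, and Csf1r, the M-CSF receptor, with 815 to 1525 TPM; of 14 genes of macrophage and monocyte identity 9 lay above and 5 below 0 in log2 difference (knockout minus wild type). Cd274, which encodes PD-L1, was 22.6 ± 5.7 against 19.0 ± 4.2 TPM (knockout against wild type, SD, n = 3 each). It was not lower, and a value over the whole gene cannot check the labels where the floxed exons are unnamed, so groups are named by their labels. The lysozyme gene Lyz2 had 17229 ± 3464 against 31519 ± 7665 TPM, with no overlap. The largest component of variation, with 44.3% of the variance over 13714 genes other than the members, did not follow genotype. It set knockout 1, knockout 2 and wild type 3 apart from knockout 3, wild type 1 and wild type 2, which are called here the first and the second trio. The trios were read from the values, so what differs between them is given as levels with no test.

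The 9 receptors spanned a wide range of levels. Ccr2 was the highest, with a mean of 81.2 TPM over the 6 libraries, followed by Cxcr4 with 52.6, Ccr1 with 33.0, Cxcr2 with 16.0, Cx3cr1 with 12.7, Ccr3 with 7.26, Ccrl2 with 6.07, Ccr7 with 1.39 and Ackr3 with 0.0361 TPM. The median over all 13722 tested genes was 20.6 TPM. Ranges over the libraries were apart between Ccr1 and Cxcr2, between Ccrl2 and Ccr7 and between Ccr7 and Ackr3, while the other neighbours in this order overlapped. Ccr2 nevertheless exceeded Cxcr4 within each of the 6 libraries, by 1.24 to 2.23 times, and Cxcr2 exceeded Cx3cr1 in each, by 1.03 to 1.54 times. Ccr3 exceeded Ccrl2 in 2 of 6 libraries, so these neighbours had no fixed order. The plot of levels by library shows this order and the spread around it.

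**Figure D1:**
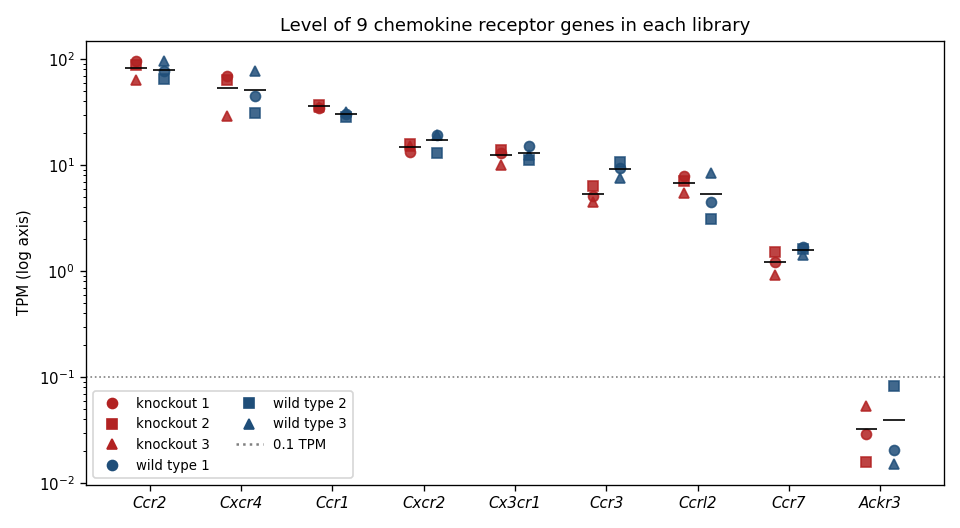
Level of the 9 receptor genes in TPM on a log axis, with 1 point per library (knockout in red, wild type in blue, the marker shape giving the replicate) and a bar at each group mean. Ccr2 leads at 64.0 to 96.5 TPM, Ackr3 lies below the filter of 0.1 TPM in every library, and the points of Ccr3 and Ccr1 separate by colour.

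Other receptors of the family put these levels in place. Among 23 genes of typical and atypical chemokine receptors examined, 10 had a mean of at least 1 TPM, 8 of them members, and 7 lay under 0.1 TPM. The others at that level were Cxcr3, which responds to interferon-induced chemokines, with a mean of 5.94 TPM, and Ccr9, known for homing of T cells to the gut, with 1.25 TPM. Ccr1, Ccr1l1, Ccr2 and Ccr3 are paralogs in 1 cluster, and how reads matching several of them were counted is not given in the sources used here, so their values are uncertain to that extent.

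No receptor passed the test of genotype. With limma on log2(TPM + 0.1), 0 of the 8 tested members had an adjusted p under 0.05, as had 0% of the 13722 genes tested. With limma-voom on the recovered reads 0 genes passed as well. Ackr3 was not tested because it stayed under 0.1 TPM. Of the 8 members 4 lay above and 4 below 0 in log2 difference, knockout minus wild type, with a median of -0.01, against 0.0026 over all genes. Without regard to sign the median was 0.22 for the members and 0.07 over all genes. The members also varied more, with a median SE of 0.19 against 0.15. Their median ratio of highest to lowest library was 1.67, against 1.38 over all genes. They were chosen with earlier results of these data known, so the larger median is not a result about genotype. An unadjusted p under 0.05 was found for 2 members, against 2.18% of all genes: Ccr1, on the higher side with 1.25% of genes, and Ccr3, on the lower side with 0.933%. The libraries of the groups did not overlap for the same 2 members, against 5.12% of all genes, of which 2.84% were higher and 2.27% lower in knockout. Without knockout 3 and wild type 3 together, 3 members (Ccr3, Ccrl2 and Cxcr4) passed, against 10.2% of all genes, but genotype then coincides with the trios. The labels call the libraries biological triplicates and do not say whether each came from a separate mouse. The test and every SD and SE therefore measure the spread between these 3 and 3 samples, which may in part be technical, and an exact permutation test of a single gene cannot go below 0.1. In bulk RNA fewer cells of a type and less RNA per cell cannot be told apart.

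Ccr3, the receptor of eotaxins, was lower in all 3 knockout libraries than in the lowest wild type. By the deposited positions it occupies 124021971 to 124031689 of chromosome 9 (plus strand, mm10). Its level was 5.12, 6.30 and 4.53 TPM in knockout 1, 2 and 3 and 9.38, 10.6 and 7.60 TPM in wild type 1, 2 and 3, from 360 to 1080 reads per library. Means were 5.32 ± 0.90 and 9.19 ± 1.51 TPM (SD, n = 3 each), which gives a log2 difference of -0.78 ± 0.18 (SE), with a 95% interval from -1.21 to -0.35. The unadjusted p was 0.00405, rank 38 of the 13722 genes, and the adjusted p was 1.0 (limma). Within the first trio the difference was -0.41 and within the second -1.12. With each library left out in turn it lay between -0.91 and -0.67. In the authors' deposited table the log2 fold change of Ccr3 is -0.79 with a p-value of 0.000376 and an adjusted p-value of 0.117. No member passes in the authors' deposited table, which calls 0.265% of its genes, and Ccr3 is the 1 member there with an unadjusted p under 0.05, against 3.23% of genes.

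Genes of the cells for which Ccr3 is best known did not separate the groups. Of 14 eosinophil, basophil and mast cell genes, all tested, 8 lay above and 6 below 0 in log2 difference, with a median of 0.02, and the groups overlapped for all 14. Their summed level was 78.6 to 84.2 TPM in knockout, against 69.6 to 95.5 TPM in wild type, the largest part from Prg2, a granule protein of eosinophils, with 41.4 to 60.2 TPM. Hdc, the histamine-forming enzyme, had 5.31 to 8.55 TPM and the eosinophil peroxidase gene Epx 0.651 to 1.19 TPM. None of the 14 was at 0 in all libraries. B lineage genes, listed beside Cxcr4 rather than Ccr3, leaned lower in knockout, with 11 of 12 negative and a median of -0.51. Their sums overlapped, with 154 to 250 against 229 to 259 TPM. The largest part of these sums came from Blnk, with 92.7 to 151 TPM and a log2 difference of -0.05. The part of B lineage cells in the Ccr3 result was not tested. Ccl24, an eotaxin, overlapped between the groups and had 8.80, 7.16 and 0.959 TPM in knockout, against 2.42, 2.82 and 8.16 TPM in wild type. The high libraries of Ccl24 were those of the first trio, as for 22.7% of all genes. Ccl11, another eotaxin, had no entry under that symbol and was not analysed here.

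Ccr1, a receptor of Ccl3, Ccl5 and Ccl9, was higher in every library labelled knockout, by little. It occupies 123962126 to 123968692 of chromosome 9 (minus strand). Ccr1 had 34.9, 37.0 and 35.5 TPM in knockout, against 30.5, 28.3 and 31.6 TPM in wild type, from 1831 to 2926 reads per library. The groups had means of 35.8 ± 1.1 and 30.1 ± 1.7 TPM (SD, n = 3 each), which gives a log2 difference of 0.25 ± 0.08 (SE) with a 95% interval from 0.05 to 0.44. The unadjusted p was 0.0197 and the adjusted p 1.0 (limma). Ccr1 was the steadiest member, with a ratio of highest to lowest library of 1.31 against a median of 1.38 over all genes. The difference was 0.19 within the first trio and 0.27 within the second. T and NK cell genes, some of whose cells also carry Ccr1, lay higher in the same libraries, with 10 of 11 tested genes positive, a median of 1.17 and sums of 10.5 to 15.4 against 6.83 to 8.98 TPM. Gzma, Ncr1, Klrb1c and Prf1 of that list had a mean under 0.1 TPM, and Cd3e, Gzmb and Il2rb passed the filter through the knockout libraries alone. None of the 15 was at 0 in all libraries, and their part in the Ccr1 result was not tested.

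Among these ligands of Ccr1, Ccl5 separated the groups while Ccl3 and Ccl9 did not. Ccl3, a macrophage inflammatory protein, had 381, 204 and 414 TPM in knockout, against 403, 224 and 279 TPM in wild type. Ccl9 had 507, 543 and 683 against 707, 583 and 455 TPM. The groups overlapped for both. Ccl5, which attracts T cells and monocytes, had 6.62, 9.76 and 9.47 TPM against 2.58, 0.787 and 4.01 TPM, from 13 to 142 reads per library. Its groups did not overlap, against 5.12% of all genes. The log2 difference of 2.01 ± 0.54 (SE) did not pass (limma adjusted p = 1.0).

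**Figure D2:**
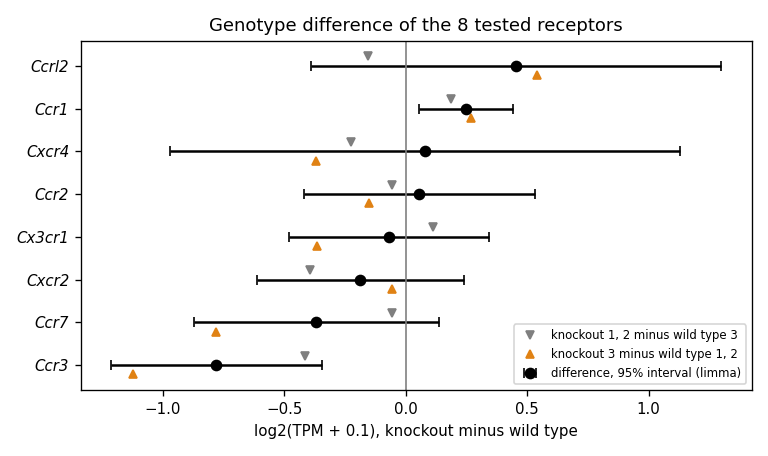
Log2 difference of each of the 8 tested receptors, knockout minus wild type, on log2(TPM + 0.1), as black points with 95% intervals from limma. Grey triangles give knockout 1 and 2 minus wild type 3, orange triangles knockout 3 minus wild type 1 and 2; the intervals of Ccr3 and Ccr1 do not reach 0, and for Ccrl2 and Cx3cr1 the triangles lie on opposite sides of 0.

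Ccr2, Cxcr4 and Ccrl2 instead divided along the trios. Ccr2, the receptor of Ccl2 and Ccl7, occupies 124102183 to 124109140 of chromosome 9 (plus strand). Ccr2 had 96.5, 88.2 and 96.1 TPM in knockout 1, knockout 2 and wild type 3, and 64.0, 77.4 and 65.2 TPM in knockout 3, wild type 1 and wild type 2, from 5578 to 10254 reads per library. By genotype the means were 82.9 ± 16.9 and 79.6 ± 15.6 TPM (SD, n = 3 each), which gives a log2 difference of 0.06 ± 0.20 (SE) with a 95% interval from -0.42 to 0.53. Within the trios it was -0.06 and -0.15.

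Cxcr4, the receptor of Cxcl12, occupies 128588199 to 128592299 of chromosome 1 (minus strand). It had 69.8, 63.4 and 77.7 TPM in the first trio and 28.8, 44.6 and 31.1 TPM in the second, in the same order of libraries, from 1267 to 4037 reads. The ratio of the highest to the lowest library, 2.70, was exceeded by 9.31% of all genes, and it was the largest among the tested members. By genotype the values were 54.0 ± 22.1 and 51.2 ± 24.0 TPM (SD, n = 3 each), which gives a log2 difference of 0.08 ± 0.44 (SE) with a wide 95% interval from -0.97 to 1.13. Within the trios it was -0.22 and -0.37.

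Ccrl2, which presents chemerin to neighbouring cells, occupies 111054835 to 111057270 of chromosome 9 (minus strand). It had 7.94, 7.04 and 8.34 TPM in the first trio and 5.49, 4.45 and 3.14 TPM in the second, from 199 to 504 reads. By genotype it was 6.82 ± 1.24 and 5.31 ± 2.71 TPM (SD, n = 3 each), which gives a log2 difference of 0.45 ± 0.35 (SE), with a 95% interval from -0.39 to 1.30. Within the first trio the difference was -0.16 and within the second 0.54. It was 0.14 without wild type 2 and 0.83 without wild type 3. These 3 of 8 members were higher in every library of the first trio, and no member was lower there; over all genes the shares were 22.7% and 24.6%.

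The Ccr2 ligands Ccl2, Ccl7 and Ccl12 lay in the order opposite to their receptor. Ccl8, also on the ligand list, did not. Ccl2, the main attractant of monocytes, had 462, 317 and 232 TPM in knockout 1, knockout 2 and wild type 3, and 1754, 1394 and 980 TPM in knockout 3, wild type 1 and wild type 2. Ccl7, a second ligand of Ccr2, had 206, 138 and 93.6 TPM against 1110, 630 and 525 TPM in the same order. Ccl12 had 14.9, 12.6 and 7.04 TPM against 129, 29.95 and 19.8 TPM. For these ligands every library of the second trio exceeded every library of the first, as for 24.6% of all genes. For their receptor the reverse held, as for 22.7% of all genes, and a link between the patterns was not tested. Ccl8, which was low, had 0.859, 0.857 and 0.547 TPM against 3.14, 0 and 0.189 TPM. By genotype the groups of Ccl8 did not overlap, against 5.12% of all genes, with a log2 difference of 2.44 ± 0.78 (SE) from 0 to 39 reads per library. None of the 4 passed the test of genotype (limma), and the log2 differences of Ccl2 and Ccl7 were -0.10 ± 0.85 and 0.01 ± 0.99 (SE). Cxcl12, a ligand of Cxcr4 and Ackr3, had only 0.104 to 0.366 TPM, and Rarres2, which encodes chemerin, 0 to 0.0987 TPM. Mif, also on the ligand list, had 88.8 to 148 TPM.

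**Figure D3:**
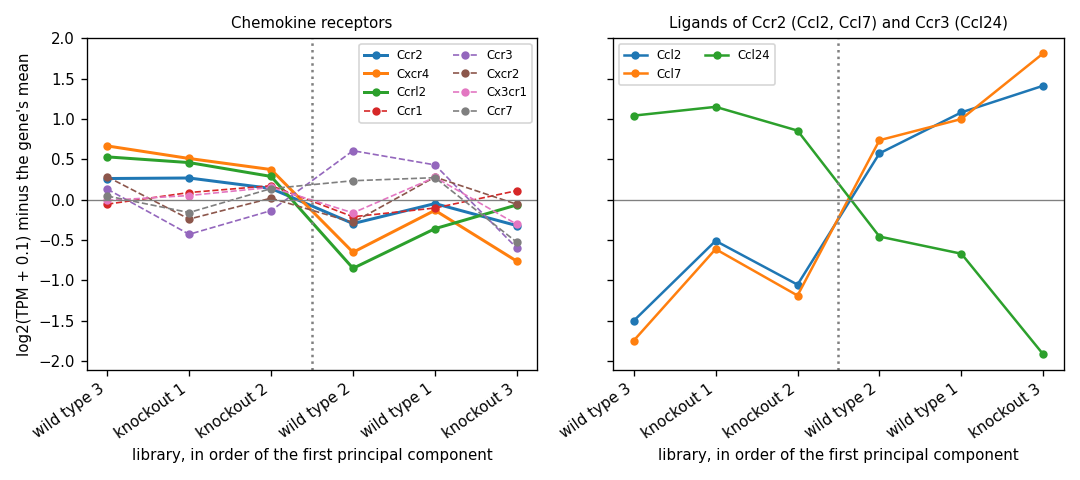
Deviation of each gene from its own mean over the 6 libraries, on log2(TPM + 0.1), with libraries in order of the first principal component and a dotted line between the trios. Ccr2, Cxcr4 and Ccrl2 (solid lines, left) lie higher in wild type 3, knockout 1 and knockout 2, as does Ccl24 (right), while Ccl2 and Ccl7 (right) lie lower there.

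Cx3cr1, Cxcr2 and Ccr7 followed neither division. Cx3cr1, the receptor of the membrane-bound chemokine Cx3cl1, occupies 120048683 to 120068296 of chromosome 9 (minus strand). It had 13.01, 14.0 and 10.1 TPM in knockout, against 15.2, 11.2 and 12.5 TPM in wild type, from 923 to 1446 reads. The groups overlapped, with a log2 difference of -0.07 ± 0.17 (SE) and a 95% interval from -0.48 to 0.34. Its sign differed between the trios, 0.11 and -0.36. Cx3cl1 itself had 0.139 to 0.398 TPM.

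The ratio of Ccr2 to Cx3cr1, receptors that mark inflammatory and patrolling monocytes, was 6.68 ± 0.63 in knockout and 6.20 ± 1.35 in wild type (SD, n = 3 each). Its values of 6.31 to 7.42 lay inside the wild-type range of 5.08 to 7.70. Among 13 other tested genes of these monocytes 6 lay above and 7 below 0 in log2 difference, with a median of -0.01. Fcgr4, an Fc receptor of patrolling monocytes, was the 1 gene of these 13 whose groups did not overlap, against 5.12% of all genes. Its log2 difference was 0.67 ± 0.16 (SE, limma adjusted p = 1.0), and it was named after its values were seen.

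Cxcr2, the receptor of neutrophil-attracting chemokines such as Cxcl1 and Cxcl2, occupies 74153994 to 74161246 of chromosome 1 (plus strand). It had 13.3, 16.0 and 15.2 TPM in knockout, against 19.2, 12.96 and 19.2 TPM in wild type, from 1120 to 1676 reads. Wild type 2 was the lowest of all libraries and the other wild types the highest, so the groups overlapped, with a log2 difference of -0.19 ± 0.18 (SE) and a 95% interval from -0.61 to 0.24. The difference was -0.38 without wild type 2 (limma, unadjusted p = 0.0253), -0.11 without knockout 1, -0.094 without wild type 1 and -0.093 without wild type 3. The neutrophil and granulocyte precursor genes beside it were abundant, with sums of 7454 to 8619 against 6193 to 9024 TPM. Of these 14 genes 8 lay above and 6 below 0 in log2 difference, and their summed level was also lowest in wild type 2 and highest in wild type 3. The other libraries did not keep this order. The sum was 8619 TPM in knockout 1, with Cxcr2 at 13.3 TPM, and 7792 TPM in wild type 1, with Cxcr2 at 19.2 TPM. S100a9, a calcium-binding protein of neutrophils and monocytes, had 2877 to 4151 TPM. The part of such cells in the level of Cxcr2 was not tested. Cxcl2, which macrophages make, had 8.96 to 23.1 TPM, and Cxcl1 1.17 to 4.16 TPM. Ppbp, also on the ligand list, was higher, with 65.4 to 120.6 TPM and overlapping groups.

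Ccr7, the receptor that leads dendritic cells to lymph nodes, occupies 99144199 to 99155077 of chromosome 11 (minus strand). It had 1.21, 1.51 and 0.918 TPM in knockout, against 1.67, 1.63 and 1.41 TPM in wild type, resting on 44 to 100 reads, so that counting alone gives a coefficient of variation of 10.0% to 15.1%. Knockout 2 lay inside the wild-type range. The log2 difference was -0.37 ± 0.21 (SE) with a 95% interval from -0.87 to 0.14, and -0.06 and -0.78 within the trios. Without knockout 3 it was -0.20. Dendritic cell genes beside it had sums of 20.2 to 27.0 against 21.1 to 27.1 TPM, with 4 of 12 tested genes positive and 8 negative. Its ligand Ccl19 had no entry under that symbol and was not analysed here.

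Ackr3, the atypical receptor that removes Cxcl12, was close to the limit of counting. It occupies 90203980 to 90215722 of chromosome 1 (plus strand) and had 2, 1 and 3 reads in knockout and 1, 6 and 1 in wild type, or 6 against 8 reads in all. A count of 0 would itself allow up to 3 reads, and only wild type 2 exceeded that, so no difference was detectable at this depth and no fold is given. Stromal and endothelial genes, whose cells are known to carry Ackr3, were also low, with sums of 8.95 to 12.1 against 11.0 to 12.5 TPM over 13 genes, 5 of them with a mean under 0.1 TPM (Col3a1, Lepr, Pdgfra, Dcn and Lum). Of the 8 tested genes 1 lay above and 7 below 0 in log2 difference, with a median of -0.26. The groups did not overlap for Sparc, a matrix protein, and the collagen gene Col1a2, against 5.12% of all genes. Both gaps were narrow. Sparc had 0.934 TPM in knockout 1 and 0.948 TPM in wild type 1. Col1a2 rested on 7 to 60 reads per library, with 16 in knockout 1 and 12 in wild type 1. The log2 difference of Sparc was -1.02 ± 0.35 (SE) and that of Col1a2 -0.73 ± 0.39, with unadjusted p of 0.025 and 0.103 (limma). Ccr3 also lay lower in the knockout libraries, and the part of stromal and endothelial cells in that result was not tested.

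The receptor genes Ccr1, Ccr3 and Ccr2 share a stretch of chromosome 9 with other chemokine receptors, a feature the choice of members did not use. Within 500 kb of the start of Ccr2 13 genes were examined, of which 11 were tested, 7 with a positive and 4 with a negative log2 difference. Beside Ccr1 and Ccr3, already described, the groups did not overlap for Cxcr6; over all genes the share was 5.12%. Cxcr6, a receptor of T and NK cells, had 27, 57 and 49 against 4, 3 and 4 reads, a log2 difference of 2.43 ± 0.33 (SE, limma adjusted p = 0.472); it was tested only because it reached 0.1 TPM in knockout. Ccr1l1, which lies between Ccr1 and Ccr3, had 0.823 ± 0.244 and 0.995 ± 0.162 TPM, with overlapping groups. Adjacent receptors had differences of both signs, which the map of log2 differences around Ccr2 shows. Ccrl2 and Cx3cr1 lie on the same chromosome outside this stretch.

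**Figure D4:**
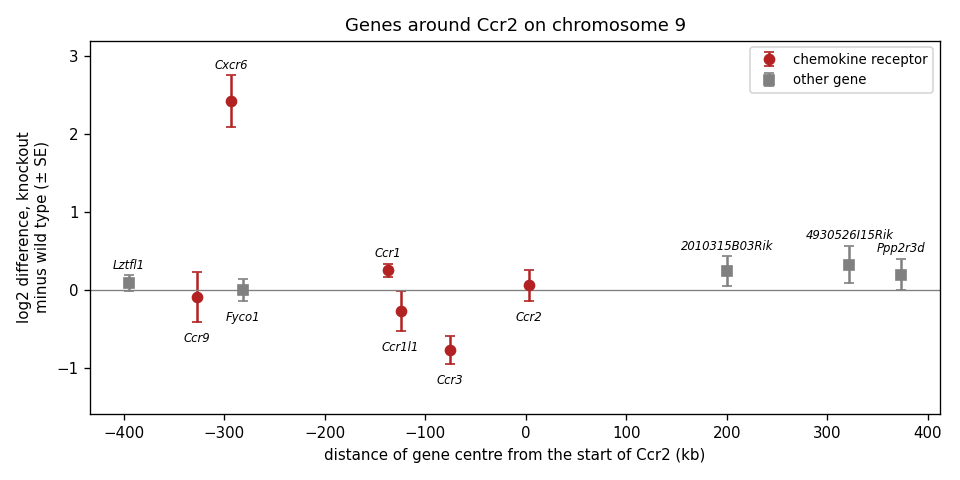
Log2 difference, knockout minus wild type, with SE bars, of 11 tested genes within 500 kb of the start of Ccr2, by the distance of the gene's centre from that start in kb (red, chemokine receptors; grey, other genes). Ccr3 is the lowest point at -0.78 and Cxcr6 the highest at 2.43, while the grey genes lie between -0.01 and 0.32.

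Other genes of the pathway had no calls either, and their counts at an unadjusted p under 0.05 stand beside 2.18% over all genes. Of 18 tested genes for other chemokine and chemoattractant receptors 6 lay above and 12 below 0 in log2 difference, with a median of -0.10. Of these 0 passed (limma), and 1, Cxcr6, had an unadjusted p under 0.05. Cxcr6 was tested only because it reached 0.1 TPM in knockout, so its p is no support. The most abundant were C3ar1 and C5ar1, receptors of complement fragments, with 535 to 612 and 347 to 793 TPM, and Ptafr, the receptor of platelet-activating factor, with 118 to 193 TPM. C5ar1 was lower and Ptafr higher in every library of the first trio, as were 24.6% and 22.7% of all genes. Of 19 tested genes on the ligand list 14 lay above and 5 below 0 in log2 difference. Of these 0 passed and 2 had an unadjusted p under 0.05 (limma), Ccl5 and Ccl8, the latter at 0 to 3.14 TPM. The most abundant ligands were Ccl2, described above, Ccl6 with 529 to 828 TPM and Ccl9. Of 27 tested genes that carry or end the receptor signal 11 lay above and 16 below 0 in log2 difference, with a median of -0.03, and 0 had an unadjusted p under 0.05. The most abundant were Gnai2, an inhibitory G protein subunit, with 904 to 1026 TPM, the integrin gene Itgb2 with 607 to 695 TPM and the G protein gene Gnb2 with 483 to 550 TPM.

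The genes whose pattern over the 6 libraries was most like each receptor were found among 9290 genes with a mean of at least 5 TPM. For Cxcr4 these were Map1lc3b, a marker of autophagosomes, and Stard8 (Pearson r of log2 values of 0.998 and 0.998), and for Ccr2 Fam212a and Dennd5a (0.999 and 0.997). In all, 555 and 512 genes had r above 0.95 with Cxcr4 and Ccr2. For Ccrl2 the nearest were S100a9 and the ubiquitin-like activating enzyme gene Uba7 (0.997 and 0.996), with 134 genes above 0.95. For Ccr1 the nearest were Insl6 and AW112010 (0.991 and 0.979) with 7 genes above 0.95, and for Ccr3 Plod1, a collagen-modifying enzyme, and Zfyve19 (0.982 and 0.976) with 5. For Cx3cr1 they were Zfp422 and Ubl5 (0.988 and 0.984), for Cxcr2 Tmub1 and Map3k12 (0.967 and 0.960), and for Ccr7 Cytip and the DNA repair gene Mgmt (0.990 and 0.987). These values describe 6 libraries that share the division into trios, and the best of 9290 genes are high by selection.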

How the data were processed

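Strand-specific total RNA libraries were made from 4 µg of DNase-treated RNA per culture, per the labels' protocols. The submitters' processing notes name mm10, TopHat2 2.0.12, featureCounts, Subread, edgeR, Picard 1.127 and FastQC 0.11.2; what each did, and with which annotation, is not given in the sources used here. TPM values per gene and library were deposited by the authors; the sums of 1000000 in each library gave the unit. Further columns hold, per the file headers, a log2 fold change, the mean log2 CPM, a score from a likelihood ratio test, its p-value and the adjusted one.

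Whole reads were recovered from ratios of TPM between libraries, within 0.001 of a read, for 100% of 94034 values above 0; for 308 genes the common factor came from the authors' mean log2 CPM. Counts of 0 and floors of 3 reads cover counting error only. The groups were compared by limma 3.58.1 (R 4.3.3; trend, two-sided; threshold 0.05 after Benjamini-Hochberg adjustment over all 13722 genes) on log2(TPM + 0.1). A gene needed 0.1 TPM in 3 or more libraries, and the scale understates differences of low genes. The recovery of reads and the test were also run on simulated data. These held no division into trios, so they do not show how the test performs on the present libraries. Gene starts are printed counting from 1. All 9 members matched RefSeq symbols, and 8 of them, all but Ccr7, an upstream sequence there. Per-sample columns left unused numbered 0. A gene of the receptor family is not reported here and was left out of the counts of receptors and neighbours.

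The members and gene lists were chosen with earlier results of these data known. Named were the members, listed genes past the threshold, the 3 most abundant of the family, ligand and signalling lists, fixed ligands, the 2 genes most like each member, and receptors within 500 kb of Ccr2; further genes are named as examples of their lists. Alternatives were other pseudocounts, filters, models and scaling, a replicate block, a term for the trio and left-out libraries.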

Additional observations from a re-analysis of the deposited data

How the results depend on the processing

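No alternative but 1 changed the counts of calls (0 genes, 0 members), and Ccr1, Ccr3, Ccr7, Ccrl2 and Cxcr2 kept their direction under all 16 alternatives. Without knockout 3 and wild type 3 together, where genotype coincides with the trios, 694 genes were higher and 706 lower, and 3 members passed, Ccr3 (-0.80, limma adjusted p = 0.0357), Ccrl2 (0.98, adjusted p = 0.0417) and Cxcr4 (0.83, adjusted p = 0.0488), where 10.2% of all genes were called; there Cx3cr1 reversed to 0.045. With a term for the trio Ccr2 and Cxcr4 reversed to -0.10 and -0.30. Leaving out each library in turn gave log2 differences of -0.078 to 0.23 for Ccr2, -0.23 to 0.48 for Cxcr4, -0.17 to 0.067 for Cx3cr1, 0.14 to 0.83 for Ccrl2, -0.38 to -0.093 for Cxcr2, -0.53 to -0.20 for Ccr7, -0.91 to -0.67 for Ccr3 and 0.20 to 0.28 for Ccr1. The sign changed without knockout 1 or wild type 2 for Ccr2, without these or knockout 2 for Cxcr4, and without knockout 3 or wild type 1 for Cx3cr1; the cause was not tested. Among these fits Ccr3 kept an unadjusted p of 0.00237 to 0.0169, and that of Ccr1 was 0.0824 without knockout 2 and 0.0661 without wild type 2. The labels do not say that a replicate number marks a shared litter or day. Deviations from the group means had correlations across genes of -0.24, -0.15 and -0.53 between same-numbered libraries. Between differently numbered ones they ran from -0.30 to 0.43. Deviations within a group are not independent of each other, so these values do not settle whether the libraries are paired. With the replicate number as a block 0 genes were called and the unadjusted p was 0.00442 for Ccr3 and 0.0897 for Ccr1. Depth limits Ackr3 and, in part, Ccr7.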
